A study of Mus musculus with 2 samples.

Results

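Keratins are the intermediate filament proteins of epithelial cells. Each filament is built from paired chains, 1 acidic type I keratin with 1 basic type II keratin, and a chain without a partner is unstable and is degraded. Krt8 (type II) and Krt18 (type I) form the first pair made in the embryo and the main pair of simple epithelia such as liver and gut, Krt7 (type II) and Krt19 (type I) are made in ducts and other simple epithelia, and Krt80 is a type II keratin found in many epithelia. Glial cells and gliomas build their filaments mainly from vimentin, nestin and Gfap instead. The 5 genes Krt7, Krt8, Krt18, Krt19 and Krt80 were taken by symbol from the 32285 genes of the count tables. They were selected on their levels in these same libraries, so the difference between the cultures given here is a description.

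GL261 is a glioma line of C57BL/6 mice, which the submitters list as an astrocytoma. Both cultures were grown in DMEM that held Penicillin-Streptomycin at 1% and FBS at 10%. Adherent cells received nothing further, and neurosphere cells received Epidermal Growth Factor and Fibroblast Growth Factor, both at 20 ng/ml, and B-27 at 1:50 for 12 days. By the submitters' protocol, neurospheres were broken up with trypsin and trituration, adherent cells were detached with trypsin, and both were frozen before library construction. Each culture gave 1 library (single cell 3′ protocol), so no difference has a replicate check, no test was run, and each interval (95%) covers counting error only.

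The libraries held 68531063 unique molecular identifiers (UMIs) in 5764 called adherent cells and 82832873 in 4951 called neurosphere cells. After the filters, 5051 adherent cells (median 8260 UMIs) and 4276 neurosphere cells (median 13199 UMIs) were kept, with 46290996 and 64943938 UMIs. Levels are given as CPM, a gene's UMIs scaled by these totals, and since neurosphere cells were more deeply sequenced, shares of cells are also given after each cell was thinned to 5000 UMIs. Of all barcodes, 12 occurred in both libraries. Among these, 0 of 10 kept adherent cells and 10 of 11 kept neurosphere cells held Krt8, and without them the log2 fold change of Krt8 was 9.58 in place of 9.59.

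Krt8 was abundant in neurosphere cells and scarce in adherent cells. Adherent cells held 182 UMIs of Krt8, a level of 3.93 CPM (3.38 to 4.55), and neurosphere cells held 196433 UMIs, a level of 3025 CPM (3011 to 3038). Ranked by UMIs, not corrected for length, among all genes left after the filters, Krt8 was gene 10373 in adherent cells and gene 13 in neurosphere cells. The neurosphere level was 769-fold higher (665 to 895), a log2 fold change of 9.59 (9.38 to 9.81).

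Krt18, its usual partner, differed in the same direction on far fewer UMIs. It had 5 adherent UMIs (0.108 CPM, 0.0351 to 0.252), each in a different cell, and 1692 neurosphere UMIs (26.1 CPM, 24.8 to 27.3). This is a 241-fold difference (103 to 744) and a log2 fold change of 7.91 (6.69 to 9.54), where the wide interval comes from the 5 adherent UMIs. It was 8.57 (7.02 to 10.85) when both cultures had to meet the gene minimum of neurosphere cells.

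The other 3 genes were at or near the limit of detection in both cultures. Krt7 was counted 3 times in adherent and 1 time in neurosphere cells, and Krt19 was counted 0 times and 1 time. A count of 0 allows up to 3 UMIs, or 0.0648 CPM, in adherent cells. No fold is given for either gene, since both cultures lay at or below that limit. Krt80 was counted in 6 adherent cells and 1 neurosphere cell, 1 UMI in each, which gives -3.07 (-8.60 to -0.03) on the log2 scale. That interval spanned 0 when both cultures had to meet the gene minimum of neurosphere cells, and also when the total included mitochondrial and ribosomal genes. The counts therefore go against treating the 5 genes as a set expressed together in these cultures: Krt8 and Krt18 were detected well above the limit in neurosphere cells, and Krt7, Krt19 and Krt80 were not.

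**Figure D1:**
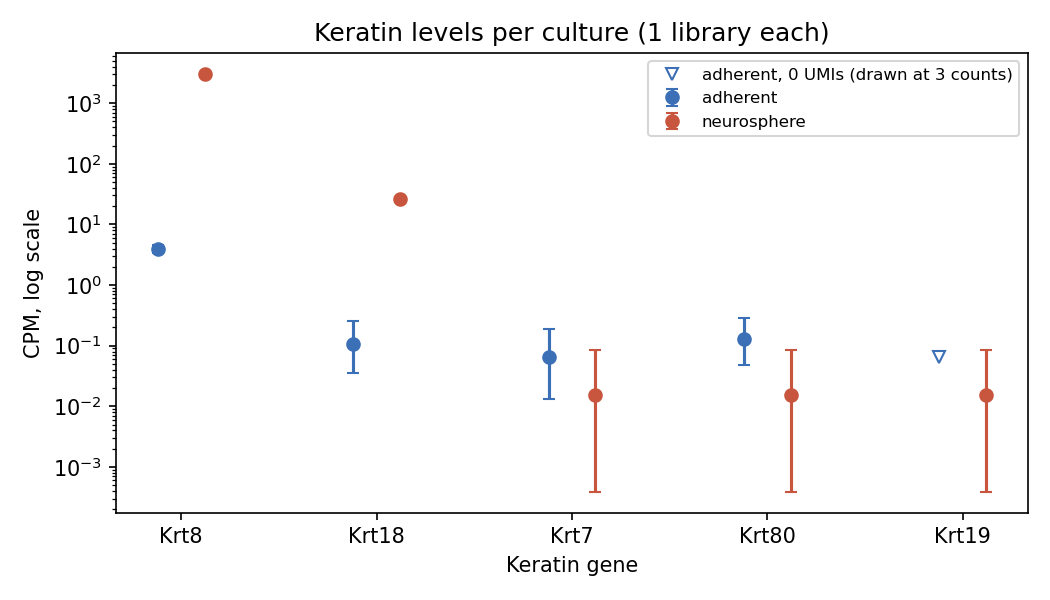
Level of each keratin gene (horizontal axis) in CPM on a log scale (vertical axis) in the adherent library (blue) and the neurosphere library (red). Points are levels from summed UMIs, bars are Poisson 95% intervals, and the open triangle stands for 0 UMIs and is drawn at 3 counts; Krt8 sits at 3.93 and 3025 CPM, while Krt7, Krt19 and Krt80 stay below 0.2 CPM in both libraries.

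As background, 14654 genes reached 50 UMIs in the 2 libraries together. Of these, 3181 (21.7%) exceeded a 2-fold difference upward in neurosphere cells, 1711 (11.7%) did so downward, and the median log2 fold change was 0.32. TMM scaling gave 2354 upward, 2128 downward and a median of 0.11. A total that included mitochondrial and ribosomal genes gave 4325 upward, 1375 downward and a median of 0.54. Krt8 and Krt18 were the members that reached 50 UMIs. At their size or above stood 7 genes for Krt8 and 28 for Krt18, each gene itself included. Nothing is read from these ranks, since the same contrast led to the choice of the genes.

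Krt8 and Krt18 are neighbours among the keratin genes at the end of the type II keratin cluster, although Krt18 itself is a type I gene. Part of another gene, Gm36026, lies between them. In GRCm38, Krt8 (ENSMUSG00000049382) is on the minus strand at chr15:101996698-102004482 with 9 exons and Krt18 (ENSMUSG00000023043) is on the plus strand at chr15:102028180-102032027 with 7 exons, so that they are transcribed away from each other across a gap of 23.7 kb. Krt7 (chr15:101411043-101430313, plus strand) and Krt80 (chr15:101347444-101370162, minus strand) lie farther along the same chromosome, with 566 kb between Krt7 and Krt8, and Krt19 is in the type I cluster at chr11:100140810-100148665 (minus strand).

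Short stretches at the starts of the pair are shown because these are the members that were higher in neurosphere than in adherent cells. RefSeq (GRCm38.p6) starts each gene inside the GENCODE transcript, 140 bases downstream for Krt8 and 36 bases downstream for Krt18. The lines below give the bases upstream of the GENCODE start and, for Krt8, 30 bases around the TATAAA match further down. Capitals mark TATAAA (the letters of a TATA box) or CACCTG (the letters of an E-box) on either strand. The marked Krt8 stretch spans the RefSeq start and lies inside the GENCODE transcript, so it is not wholly upstream of either start. The stretches lie at chr15:102004483-102004592 and chr15:102004327-102004356 (minus strand) for Krt8 and at chr15:102027966-102028179 (plus strand) for Krt18.
Krt8 upstream: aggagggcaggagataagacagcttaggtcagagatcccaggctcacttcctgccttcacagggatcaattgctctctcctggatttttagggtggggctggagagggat
Krt8 around TATAAA: tggcctcttctTTTATAAAgggccttcgct
Krt18 upstream: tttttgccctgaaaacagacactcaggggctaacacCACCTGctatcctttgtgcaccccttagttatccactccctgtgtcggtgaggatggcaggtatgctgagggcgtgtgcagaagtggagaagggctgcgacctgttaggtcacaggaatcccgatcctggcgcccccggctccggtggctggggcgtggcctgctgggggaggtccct

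The whole RefSeq window of 300 bases (250 before to 50 after the start) was searched on both strands for 4 motifs, chosen with the data known. The Krt8 window held TATAAA on both strands, in 2 overlapping matches, and no GGGCGG (a GC box). The Krt18 window held neither, and the Krt7 window held GGGCGG at 4 places and no TATAAA. Each of the 3 windows held CACCTG at 1 place, and none held TGANTCA, the site of AP-1. Of 32851 windows in the table, 13.6% held TATAAA, 35.7% GGGCGG, 7.81% TGANTCA and 20.2% CACCTG. The Krt8 window had 6 CG dinucleotides and the Krt18 window 17, against a median of 7. Such matches describe the letters and say nothing of binding.

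Of the 20 nearest genes, 10 reached 50 UMIs, and of these 1 exceeded 2-fold upward in neurosphere cells and 3 downward, beside 21.7% and 11.7% of all genes. On the Krt8 side, the 10 nearest genes are type II keratins of skin, hair and oral epithelium, such as Krt1, Krt2 and Krt4, and 8 of them had 0 UMIs in both cultures, while Krt77 had 1 adherent UMI and Krt78 had 2 UMIs in each culture. On the Krt18 side, Eif4b, a translation initiation factor, had a log2 fold change of 0.11 (0.07 to 0.15), Tns2, a focal adhesion protein, 0.49 (0.30 to 0.68), and Spryd3 0.20 (0.10 to 0.30). Farther out, Igfbp6, a secreted binding protein of insulin-like growth factors, was lower at -5.21 (-5.62 to -4.82), as were Soat2 at -1.99 (-2.88 to -1.16) and the retinoic acid receptor Rarg at -1.18 (-1.34 to -1.03). Gm36026, a gene on the opposite strand that overlaps the start of Krt8, had 0 adherent and 113 neurosphere UMIs, at least 26.8-fold higher, and 102 of the 105 neurosphere cells with a UMI of it also held Krt8. Whether the counting used strand is not stated in the sources used here, so reads of this pair may not be told apart.

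Within neurosphere cells, Krt8 varied from cell to cell over a wide range. It was detected in 3221 of 4276 cells (75.3%, 74.0 to 76.6), and in 65.5% of 4196 thinned cells (64.0 to 66.9). The lower quartile was 1 UMI, the median 8 UMIs, the upper quartile 60 UMIs, and the highest cell had 982 UMIs. Zero was recorded in 1055 cells and a single UMI in 470 cells. The 428 cells with the most Krt8, of 4276, carried 51.1% of its UMIs. Equal depth left this spread in place: in thinned cells the median was 3 UMIs, the upper quartile 21 and the highest 226. The rank correlation of Krt8 with the total UMIs of a cell was 0.25 over 4276 cells that share 1 library.

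In adherent cells, Krt8 was found in 136 of 5051 cells (2.69%, 2.26 to 3.18), or 1.66% of 4464 thinned cells (1.30 to 2.08). Of those, 112 cells had 1 UMI, and the highest had 9. With a single cell line in both libraries, a cell type known to lack Krt8 was not at hand to set the background of free RNA. In neurosphere cells, 673 cells with 1 or 2 UMIs carried 0.446% of the Krt8 UMIs, and 702 cells with over 100 UMIs carried 68.0%. The part of free RNA in the low counts was not tested.

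**Figure D2:**
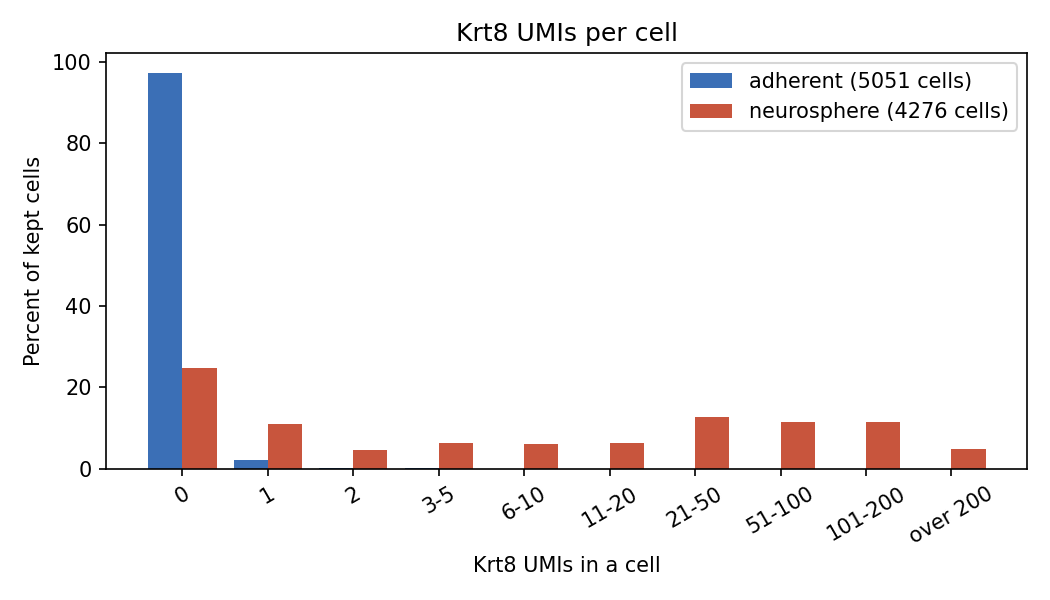
Percent of kept cells (vertical axis) with each number of Krt8 UMIs (horizontal axis, in ranges), for the adherent library (blue) and the neurosphere library (red), without thinning. In adherent cells 97.3% are at 0, whereas neurosphere cells spread from 0 (24.7%) to over 100 UMIs (16.4%).

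Among neurosphere cells, the share of cells with Krt8 and its level went opposite ways with depth. With neurosphere cells split by total UMIs into 4 groups of 1069, the share from the shallowest to the deepest group went from 63.7% to 86.9%, while the level went from 3686 to 2787 CPM. In adherent cells, also split into 4 groups, the share went from 1.43% to 4.67% and the level from 3.27 to 4.79 CPM. For Krt18 the share went from 2.34% to 10.0%, and the level was 18.4 CPM in the shallowest group and between 26.6 and 28.8 CPM in the other 3. Barcodes that failed the filters held a median of 87.0% mitochondrial UMIs in the neurosphere library, and Krt8 was still at 2198 CPM in those 675 barcodes, in 180 of them (26.7%).

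Krt18 was found in few neurosphere cells. It was detected in 263 cells (6.15%, 5.45 to 6.91), or 3.81% of thinned cells (3.25 to 4.44), against 5 adherent cells. Of the 263 cells, 99 had 1 UMI, 89 had at least 5 and 19 had at least 20, with 97 UMIs in the highest cell. The 20 highest cells carried 43.3% of all Krt18 UMIs.

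Cells with Krt18 were nearly always cells with Krt8. Both genes were found in 261 neurosphere cells, Krt8 without Krt18 in 2960, Krt18 without Krt8 in 2, and neither in 1053. Hence 99.2% (97.3 to 99.9) of the cells with Krt18 also held Krt8, against 75.3% of all cells. In thinned cells, Krt18 was found in 5.79% (4.94 to 6.73) of 2747 cells with Krt8 and in 0.0690% (0.00175 to 0.384), or 1 cell, of 1449 without. The median cell with Krt18 held 122 UMIs of Krt8 and the median cell without it held 6 before thinning, and 43 and 2 after it. In adherent cells, 2 of 136 cells with Krt8 and 3 of 4915 without had a Krt18 UMI, too few to describe a relation.

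The share of cells with Krt18 increased with the Krt8 count of the cell. At equal depth it was 0.865% (0.281 to 2.01) at 1 or 2 Krt8 UMIs, 1.19% (0.514 to 2.33) at 3 to 10, 7.81% (6.27 to 9.59) at 11 to 50, 14.1% (10.6 to 18.2) at 51 to 100 and 16.7% (9.42 to 26.4) above 100. The intervals of the last 2 ranges overlap, as do those of the first 2. Without thinning, the share reached 21.8% (18.8 to 25.04) in the 702 cells with over 100 Krt8 UMIs, so that even there most cells had no Krt18 UMI. Across 4196 thinned cells of this 1 library, Pearson's r between the genes on a log scale, ln(1 + UMI), was 0.23 and Spearman's rho 0.23. Counts of Krt18 are sparse, and r is given as a description.

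**Figure D3:**
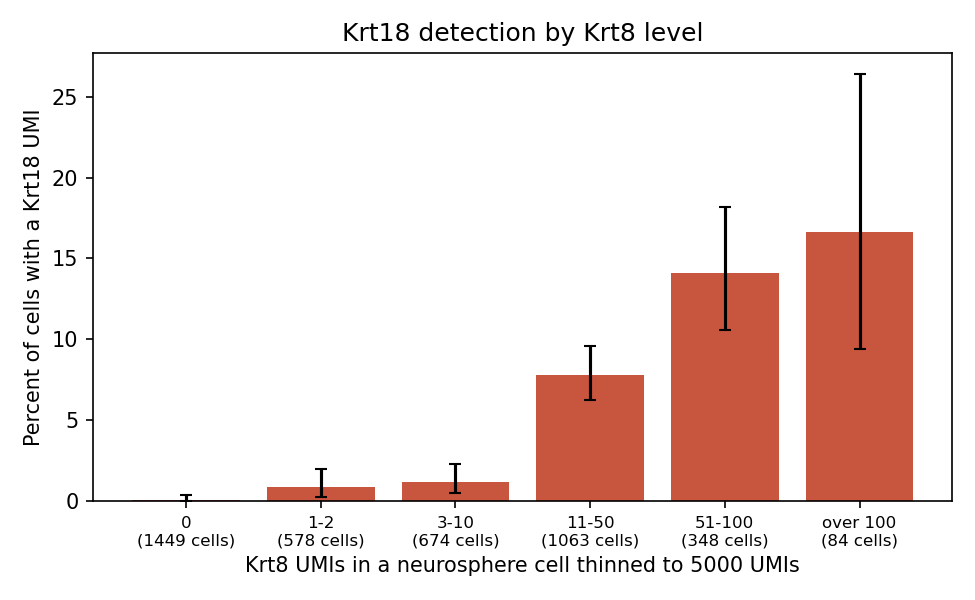
Percent of neurosphere cells with a Krt18 UMI (vertical axis) by the number of Krt8 UMIs in the cell (horizontal axis), after each cell was thinned to 5000 UMIs. Bars are shares and black lines exact binomial 95% intervals; the share is 0.0690% at 0 Krt8 UMIs, 7.81% at 11 to 50 and 16.7% above 100.

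Transcripts of the partners were present in very unequal numbers. Over all kept neurosphere cells, 116 UMIs of Krt8 (111 to 122) were counted for each UMI of Krt18. Divided by exon length (1958 and 1437 bases), the ratio of the levels was 85.2, although a 3′ protocol counts the end of a transcript and not its length. In the 263 cells with Krt18 the ratio was 22.7 (21.6 to 23.8), and in the 89 cells with at least 5 Krt18 UMIs it was 12.5 (11.8 to 13.2). These cells were picked for their Krt18 count, so their ratio is lower by construction. Among the 89 cells, the ratio per cell had a median of 13.6 and ran from 1 to 69.2, and none had more Krt18 than Krt8. In the 263 cells, 3 had more Krt18 than Krt8.

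**Figure D4:**
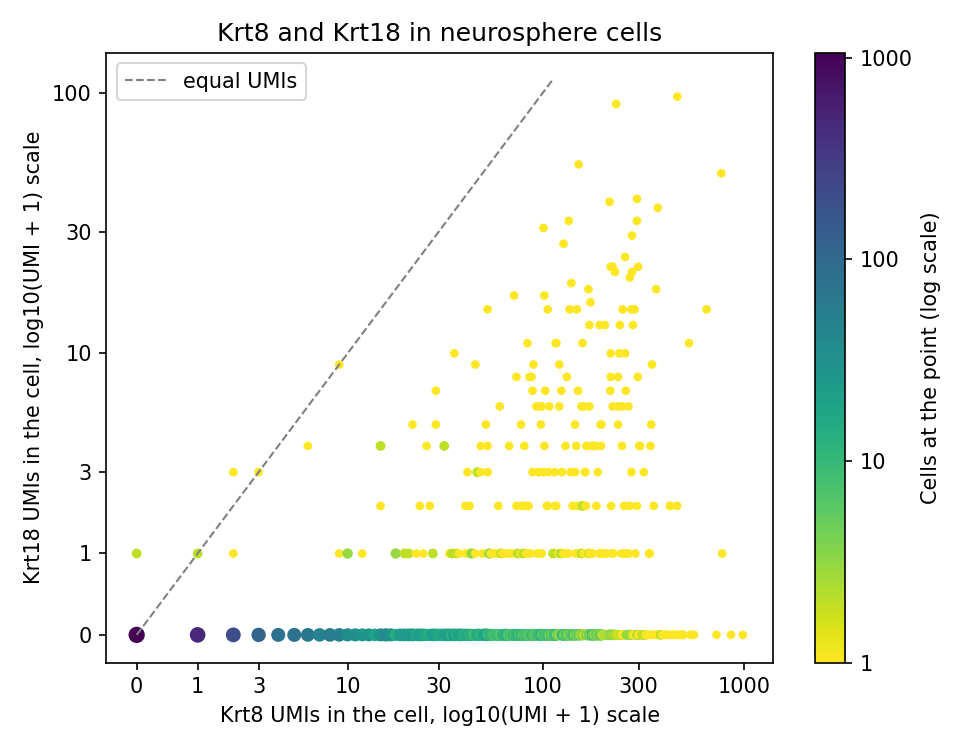
UMIs of Krt8 (horizontal axis) and Krt18 (vertical axis) in each neurosphere cell, both on a log10(UMI + 1) scale, without thinning. Colour and size give the number of cells at a point and the dashed line marks equal UMIs; 2960 cells lie along the bottom with Krt8 and no Krt18, and 3 of the 263 cells with Krt18 lie above the line.

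Other keratins were looked at as possible partners, since a type II chain can pair with more than one type I chain. The count tables list 53 keratin genes, 28 of type I and 25 of type II, and Krt8 made up 62.8% of the 290 keratin UMIs of adherent cells and 99.1% of the 198309 keratin UMIs of neurosphere cells. All type I genes together had 86 adherent and 1819 neurosphere UMIs, and all type II genes had 204 and 196490. Of the 48 other genes, 11 had a UMI in adherent and 16 in neurosphere cells.

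Krt17, a type I keratin of stressed and basal epithelium, was the one other gene with 50 UMIs. In adherent cells 31 held 67 UMIs of it, and in neurosphere cells 24 held 62 UMIs, or -0.60 on the log2 scale (-1.12 to -0.08), and 16 of its 24 neurosphere cells held Krt8 (66.7%, against 75.3% of all cells). Named after their values were seen, the type I genes Krt23 and Krt222 had 0 and 23 UMIs and 3 and 26 UMIs, in adherent and neurosphere cells. Krt81 had 6 and 23 and Krt83 had 0 and 26, and both are of type II like Krt8 and so not partners for it. Krt8 was found in 18 of 19 neurosphere cells with Krt23, 25 of 26 with Krt222, 11 of 11 with Krt81 and 9 of 9 with Krt83. These cells are few and were not thinned, and 75.3% of all neurosphere cells held Krt8. With all type I genes counted, 319 of the 3221 neurosphere cells with Krt8 (9.90%, 8.89 to 10.99) held a type I UMI. Among 706 cells with at least 100 Krt8 UMIs, 539 (76.3%) held none.

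The neurosphere cells were clustered with the keratin genes left out of the variable genes, and Krt8 then differed 15.8-fold among 10 clusters. Its level was 6764 CPM in cluster 1, led by Comp and Pdzd2, and 6281 CPM in cluster 5, led by Chit1, Spp1 and Ifit3. It was 427 CPM in cluster 7, led by Enpp2 and Mbp, genes of myelinating oligodendrocytes. In that cluster 37.0% of cells held Krt8 (29.8% when thinned), and in cluster 8, led by Igkc and Lgals1, 91.4% did (85.6% when thinned). Clusters led by cell cycle genes were found at different levels: cluster 2 (Rrm2, Ccne2) had 3263 CPM, cluster 4 (Cdc20, Ccnb1) 2622 CPM and cluster 0 (Depdc1b, Top2a) 846 CPM. All 10 were above the adherent clusters, which ran from 0 to 9.91 CPM, but this repeats the contrast between the cultures that led to the choice of the gene. The lowest neurosphere cluster depends on the run: with another seed the lowest level was 154 CPM, the highest 7101 CPM and the range 46.2-fold.

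Krt18 followed nearly the same order of clusters. Its level was highest in cluster 5 at 88.8 CPM (81.3 to 96.8), followed by cluster 1 at 46.6 CPM (41.1 to 52.7) and cluster 8 at 42.2 CPM (36.6 to 48.5), whose intervals overlap. It was lowest in clusters 7 and 9, with 4 UMIs each, at 1.30 CPM (0.354 to 3.32) and 2.77 CPM (0.754 to 7.08). These intervals leave out the spread between cells, and 39 cells held all 515 Krt18 UMIs of cluster 5. By share of thinned cells with Krt18, cluster 8 was highest at 8.17%, then cluster 5 at 6.85% and cluster 2 at 5.98%. Spearman's rho between the 2 genes' levels was 0.98 over the 10 clusters, which share 1 library. The ratio of Krt8 to Krt18 was 70.8 in cluster 5 and 206 in cluster 4, and 329 in cluster 7 on its 4 Krt18 UMIs. In each of the 10 clusters, the median Krt8 count of cells with Krt18 was above that of cells without, for example 183 against 21 UMIs in cluster 5 (39 cells with Krt18) and 120 against 1 in cluster 0 (10 cells). In clusters 7 and 9 this rests on 3 and 2 cells, with medians of 1 against 0 and 12 against 1.

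**Figure D5:**
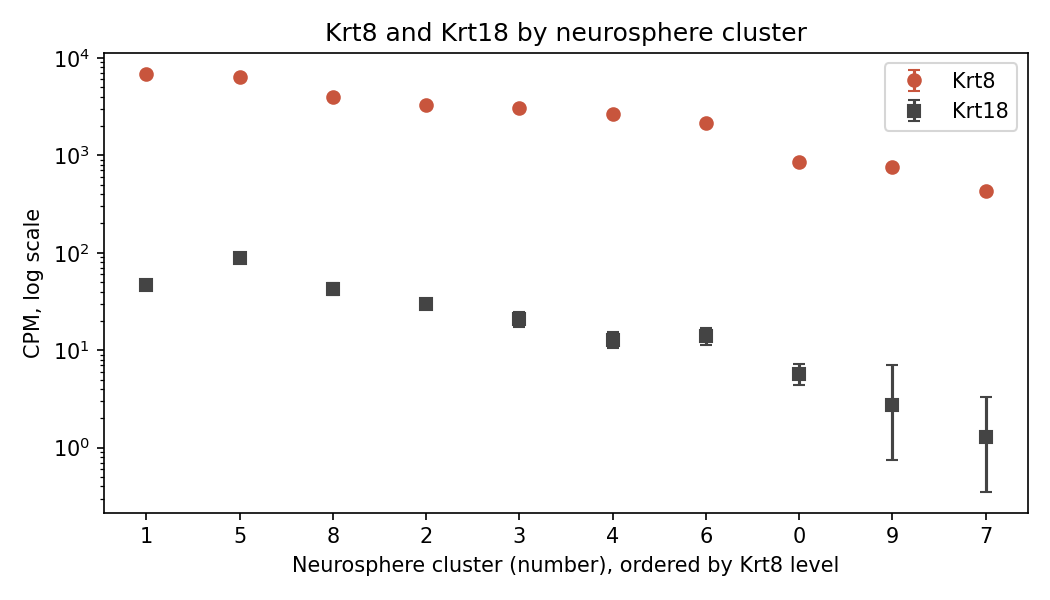
Level in CPM on a log scale (vertical axis) of Krt8 (red circles) and Krt18 (dark squares) in each neurosphere cluster, ordered by Krt8 (horizontal axis, cluster number). Bars are Poisson 95% intervals; Krt8 goes from 6764 CPM in cluster 1 to 427 CPM in cluster 7, and Krt18 is highest in cluster 5 at 88.8 CPM.

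Likeness to Krt8 across cells was measured by Pearson's r on ln(1 + UMI) over 4196 thinned neurosphere cells, for 6657 genes found in at least 10% of them. Highest was Cstb, the cathepsin inhibitor cystatin B, at 0.64, followed by Grasp, a receptor-trafficking scaffold, at 0.55. Others among the 10 highest were Asah1, the acid ceramidase of lysosomes (0.42), Cst6, another cystatin (0.40), Tmsb4x, which binds actin monomers (0.39), Sec11a of the signal peptidase (0.38), the collagen gene Col9a1 (0.37), the tetraspanin Cd63 (0.37) and the collagen gene Col18a1 (0.36). Grasp also differed between the cultures, from 29.5 to 1462 CPM, whereas Cd63 had 2327 and 2422 CPM. At the other end were Lhfpl3 (-0.37), the phosphatase subunit Ppp2r2b (-0.36), Ugdh (-0.33), the neural adhesion gene Lsamp (-0.31) and Qk, an RNA-binding regulator of myelin genes (-0.30). Krt18, found in too few cells for the comparison, would have stood at place 41 with 0.23.

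Genes of the filament and its attachments were described by lists, among members with at least 50 UMIs, and their counts stand against 21.7% higher and 11.7% lower over all genes. Desmosomal and plakin genes, which anchor keratin filaments to junctions, were mostly lower in neurosphere cells: of 8 such genes 0 were over 2-fold higher and 5 (62.5%) lower, with a median log2 fold change of -1.39 (1 higher and 4 lower with the mitochondrial and ribosomal genes in the total). Examples are the plakophilins Pkp3 (-2.71) and Pkp1 (-1.99), periplakin Ppl (-1.76) and plectin Plec (-1.64), while the plakin Dst went from 110 to 208 CPM (0.92, 0.87 to 0.96) and plakoglobin Jup was at 0.18 (-0.15 to 0.50). Dsg1a, Dsg3, Dsc1, Dsc2, Dsc3 and Perp had 0 UMIs in neurosphere cells and 0, 8, 1, 0, 1 and 0 UMIs in adherent cells. Desmoplakin (Dsp) had 0 adherent UMIs and 1 neurosphere UMI, and Dsg2 had 5 and 2, so these desmosomal genes were scarce in both cultures. The whole list summed to 354 adherent and 318 neurosphere CPM.

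Other intermediate filament genes, of which 10 reached 50 UMIs, were over 2-fold higher for 2, the lamins Lmnb1 (1.28) and Lmnb2 (1.54), and lower for 5, with a median of -1.15 (4 higher and 5 lower with the mitochondrial and ribosomal genes in the total). Vimentin (Vim), the filament protein of mesenchymal and glial cells, went from 5583 CPM in adherent to 1763 CPM in neurosphere cells (-1.66). Peripherin (Prph) was at -5.03, desmin (Des) at -2.63, synemin (Synm) at -1.97 and lamin A (Lmna) at -1.90. Nestin (Nes) was at 0.95, and Gfap was low in both cultures (0.648 and 0.416 CPM). Of 21 genes whose products bind or modify keratins, 4 were higher and 2 lower, with a median of 0.20 (2 higher, 2 lower and a median of -0.02 with TMM scaling). They include Ywhah, a 14-3-3 protein (1.92), the transglutaminase Tgm2 (-1.36) and the receptor Tnfrsf1b (-2.42).

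Epithelial adhesion and junction genes went both ways, with 4 of 15 higher and 4 lower and a median of 0.51. The epithelial adhesion molecule Epcam went from 21.6 to 123 CPM (2.50), and the claudin Cldn4 had 0 and 104 UMIs, at least 24.7-fold higher. F11r (-3.66), Spint2 (-2.83) and the integrin Itgb4 (-2.83) were lower. E-cadherin (Cdh1) had 12 and 20 UMIs, below the minimum. Among 11 epithelial transcription and splicing factors, 3 were higher, among them Gata2 (4.93) and Foxa1 (2.54), and 1 was lower, Klf4 (-1.79). Their median of -0.02 became 0.20 with the mitochondrial and ribosomal genes in the total.

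Of 18 AP-1, ETS and Sp factors, families with sites in keratin promoters, 5 were higher and 4 lower, with a median of 0.21 (1 higher, 5 lower and a median of -0.01 with TMM scaling, and 5 higher and 2 lower with the mitochondrial and ribosomal genes in the total). Fosl1 (-1.87), Elk3 (-1.72) and Atf3 (-1.16) were lower and Jund (1.52) was higher. Genes of the epithelial-mesenchymal transition were higher for 2 of 7 and lower for 2, with a median of 0.05 (-0.16 with TMM scaling). Fibronectin (Fn1) was at -2.37, Twist1 at 1.52 and Snai1 at 1.27.

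Markers of cell types that contain Krt8 and Krt18, or that a culture could hold, were summed for each library. The glial list had 5 of 15 genes higher and 2 lower (median 0.66), with Bcan at 4.79, Olig1 at 3.20, Olig2 at 2.74 and Ptprz1 at 2.73, and it summed to 6913 adherent and 5050 neurosphere CPM, much of it from Vim. Without Vim the sum was 1330 and 3287 CPM. Astrocyte markers differed among themselves: Aqp4 had 0 UMIs in both cultures and Gfap 30 and 27 UMIs, while the glutamate transporter Slc1a3 had 370 and 80.5 CPM, S100b 161 and 255 CPM and Aldh1l1 3.63 and 5.39 CPM. Olig1 and Olig2 mark the oligodendrocyte lineage. Notochord markers had 5 genes at 50 UMIs, 2 higher, led by Foxa1 and Sox6 (2.32), and 1 lower, Sox5 (-1.52), with Noto, Shh, Foxa2 and Sox9 at 0 in neurosphere cells. Their summed level of 161 and 762 CPM was mostly Sox6. Mesothelial markers summed to 0.951 and 0.385 CPM, and choroid plexus and ependymal markers to 3.15 and 2.85 CPM. Trophoblast markers summed to 12.1 and 13.1 CPM, and 7 of 12 of them, such as Cdx2 and Eomes, had 0 UMIs in neurosphere cells. Immune markers summed to 18.1 and 10.6 CPM, with Ptprc, the common leukocyte antigen, at 0 in neurosphere cells.

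Endothelial and fibroblast markers moved with Krt8 between the cultures, from a summed 4.73 to 391 CPM. All 4 genes at 50 UMIs were over 2-fold higher. The collagen gene Col1a1 went from 2.51 to 329 CPM (7.04) and decorin (Dcn) from 1 to 3606 UMIs (11.33, 8.85 to 16.63). Lumican (Lum) had 0 and 143 UMIs, at least 34.0-fold higher, and Pecam1 was at 1.28. The defining endothelial markers Cdh5 and Cldn5 had 0 UMIs in neurosphere cells, and the fibroblast marker Pdgfrb went the other way, from 32 to 4 UMIs. Across thinned neurosphere cells, r with Krt8 was 0.23 for Col1a1 and 0.00 for Dcn. Without thinning, Col1a1 was detected in 69.8% of neurosphere cells and Dcn in 26.7%, while the collagen gene Col1a2 had 1 and 23 UMIs, below the minimum. Whether the cells with these genes form a separate population, and their part in the Krt8 result, was not tested.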

How the data were processed

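The authors deposited raw UMI counts per gene and cell from Cell Ranger 7.0.1 on mm10 (versions from the submitters' processing notes), for the cells it called and without normalization. The annotation and the settings for introns and strand are not given in the sources used here.

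The 13 mitochondrial (mt-) and 101 ribosomal (Rps and Rpl) genes were removed, followed by cells under 1000 UMIs and under 1250 (adherent) or 2250 (neurosphere) genes. UMIs were summed over kept cells and given as CPM, with Poisson intervals for levels, exact conditional intervals for log2 fold changes (neurosphere over adherent) and exact binomial intervals for shares, all at 95%. The floor for a count of 0 was 3 counts. Genes over 2-fold higher or lower were counted by size where the libraries together held 50 UMIs or more of the gene. Thinning to 5000 UMIs dropped 587 adherent and 80 neurosphere cells that were shallower. Tested on simulated data for this comparison (32171 genes, 200 changed), the interval held the true value for 96% of changed genes. The counts were drawn from a Poisson model, which the interval itself assumes, and the changed genes had at least 50 adherent UMIs. That check therefore cannot speak to spread beyond counting error or to genes as scarce as Krt18 in adherent cells.

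Clusters came from Seurat 5.3.0 (2000 variable genes, from which keratin genes were then left out, 17 and 18 PCs, resolution 1.0). No cluster was given a cell type name, and no doublets were removed. Cells over the 95th percentile of UMIs were left out as an alternative. Other alternatives covered the cell filter, the genes in the total, TMM scaling (edgeR 4.0.16), the depth of thinning and the clustering. Gene positions are those of GENCODE on GRCm38, which held 32235 of the 32285 identifiers. RefSeq promoter windows matched 3 of the 5 genes (Krt7, Krt8 and Krt18). The members, the 14 gene lists and the motifs were chosen with earlier results of these data known. Named genes were the members, other keratins with at least 50 UMIs, up to 4 genes with the largest difference in each list, and the 10 most and 5 least like Krt8, and the other genes of each list are named as markers or for contrast, after their values were seen. Some genes and a sequence that these rules would name are not reported here. Python 3.11.15, numpy 2.4.6, scipy 1.17.1, pandas 2.3.3, matplotlib 3.10.9 and R 4.3.3 were used.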

Additional observations from a re-analysis of the deposited data

How the results depend on the processing

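Of 57 alternative values over 9 results, 0 reversed in direction and 43 stayed within the tolerance of the result, which was 1.5 times for a count of genes, the interval of the reported value otherwise and, for the correlation, a Fisher interval over cells that serves as a tolerance alone. Only the log2 fold changes and the correlation could reverse, because the gene counts, the share, the ratio and the cluster range are never negative. The log2 fold change of Krt8 was 9.81 when the total included mitochondrial and ribosomal genes and 9.37 with TMM scaling. The count of genes over 2-fold lower was 2651 with at least 10 UMIs, 3058 with every gene that had a UMI and 845 with at least 500 UMIs, where 2012 were higher. The share of cells with Krt18 among neurosphere cells with Krt8 was 8.10% without thinning, 4.22% at 3000 UMIs, 3.84% with at least 2 UMIs of a gene and 7.83% within cluster 2, an alternative chosen after seeing the data, as was leaving out shared barcodes. The correlation was 0.28 without thinning, the ratio 85.2 per exon length, and the cluster range 14.1-fold at resolution 0.8 and 46.2-fold with another seed. The cause of the change with the seed was not tested. Of the calls over 2-fold, 65.0% were higher in neurosphere cells, 52.5% with TMM scaling and 75.9% when the total included mitochondrial and ribosomal genes. Krt7 and Krt19 stayed at or under 3 UMIs in both cultures under each alternative for cells, totals and scaling, so no fold was computed. No paired analysis was possible because each culture has 1 library, and for the same reason no replicate could be left out.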
